A study of Mus musculus with 20 samples.

Results

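Kinesins are motor proteins that walk along microtubules, and their genes carry the symbols *Kif* and *Kifc*. All symbols of the deposited table that begin with *Kif* followed by a digit or the letter c were taken as members, which gave 41 of 16810 genes. By their known roles, 13 members build or divide the mitotic spindle, 15 carry cargo through the cell and 12 are other members of the family, many of which act at cilia, centrioles or microtubule ends. The remaining member, *Kif4-ps*, is a transcribed pseudogene. GENCODE vM21 annotates 47 genes that match this rule, so 6 annotated genes, of which 3 are protein-coding, were not analysed here.

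Mitotic kinesins push spindle poles apart, move chromosomes, trim microtubule ends and organise the midzone at which a cell divides in cytokinesis, and their genes are transcribed late in the cell cycle. Transport kinesins work in resting cells as well, where they carry vesicles, organelles and endosomes outward along microtubules, and some of them are mainly neuronal. Microglia are the resident macrophages of the central nervous system, and they can divide after an injury.

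RNA was sequenced from eGFP-high cells sorted by flow cytometry from spinal cords of male CX3CR1+/eGFP mice of 12 weeks of age. In these mice 1 copy of the fractalkine receptor gene is replaced by eGFP, which microglia and peripheral monocytes express. A cord lesion at thoracic level 9 was either a lateral hemisection (HS) or a full transection (FT), and a segment of 1 cm around it was taken after 72 h, 1 week or 2 weeks. Non-injured (NI) mice of the same genotype gave a matching segment. There were 3 samples in each group, except 2 at 1 week after HS, and more mice than samples were used, so each sample may hold RNA of several animals. The gate took the cells bright in eGFP, and favours microglia without separating them from all infiltrating macrophages. In a parallel staining by the study, of NI and HS mice only, these cells lacked the monocyte marker LY6C. At 72 h after HS, that staining split the eGFP-positive cells into a population low and a population high in the surface marker CD45.

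Levels are normalized read counts, taken as CPM (reads of a gene per M reads of a library size scaled by the normalization, where M stands for mega). No label states their unit. Columns summed to 777426 to 830481 CPM in NI and to 878070 to 1202190 CPM in injured samples. The samples held 3.87 to 34.1 M reads each on the tabled genes (median 10.1 M), so that 1 read was worth 0.0330 to 0.292 CPM. All 10 defining microglia markers were detected in each group, with summed levels from 17432 to 35091 CPM. Changes are log2 differences of CPM + 0.5 with their SE from limma, fitted to all 20 samples. Genes were called differentially expressed (DE) where they moved 2-fold or more with an adjusted p under 0.05, by the Benjamini-Hochberg method across the whole table. These p-values measure the spread between samples, since no label says how animals were shared out among them. In such sorted bulk samples, fewer cells of a type and less RNA per cell cannot be told apart.

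The mitotic kinesins rose at 72 h after both lesions, while no transport kinesin was DE at that time. At 72 h after HS, 12 of 13 mitotic kinesins were higher than in NI, against 9.08% of all genes, and their median log2 change was 2.44, against -0.11 over all genes. At 72 h after FT, 11 of 13 were higher, against 8.14% of all genes, with a median of 2.52 against -0.09. All values of the injured samples lay above all NI values for 12 of 13 mitotic kinesins after HS and for 11 of 13 after FT, and such separation upward was seen for 24.0% and 22.2% of all genes, respectively.

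The summed level of the 13 mitotic kinesins was 36.2, 32.3 and 36.0 CPM in the NI samples. At 72 h it was 455, 284 and 267 CPM in the HS samples, and 336, 267 and 293 CPM in the FT samples. The lowest sample at 72 h thus stood far above the highest NI sample, and the group means were 9.63-fold (HS) and 8.58-fold (FT) that of NI. By 1 week the sums had returned to 46.0 and 55.1 CPM after HS and to 38.2, 40.0 and 41.9 CPM after FT. At 2 weeks they were 55.0, 47.0 and 45.7 CPM after HS and 46.0, 33.3 and 42.8 CPM after FT. All 5 later HS samples and all FT samples at 1 week lay above the NI samples, whereas the FT samples at 2 weeks overlapped them.

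**Figure D1:**
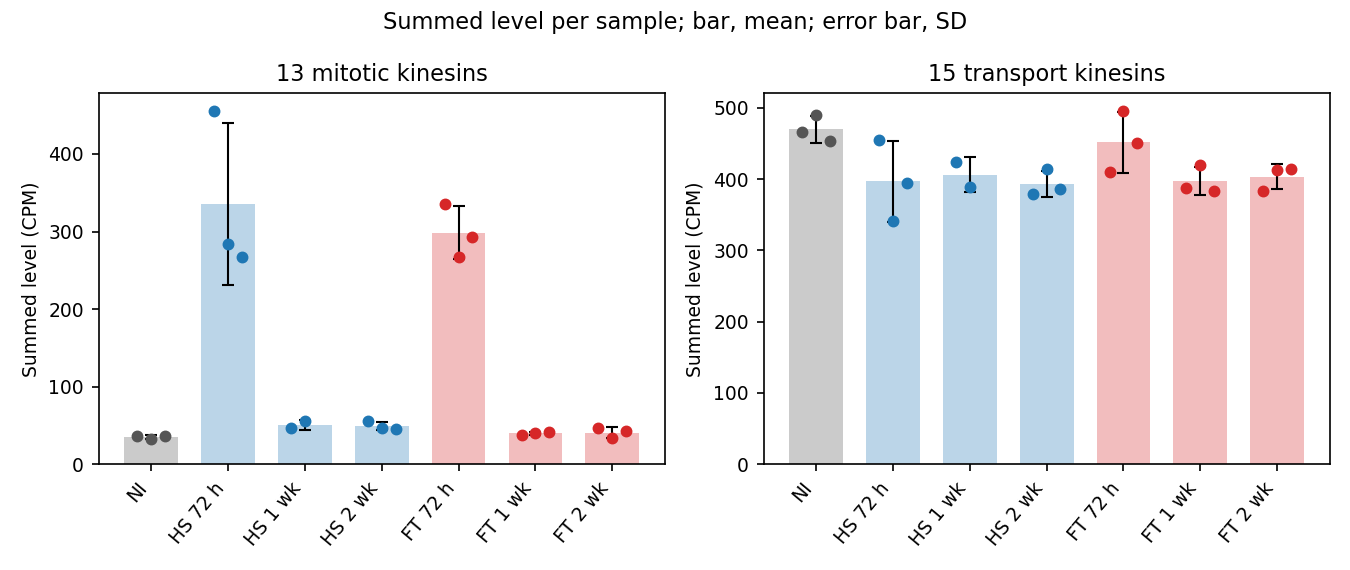
Summed level in CPM (vertical axis, from 0) of the 13 mitotic and the 15 transport kinesins in each of the 20 samples (points), by group (horizontal axis); bars are group means and error bars are SD. The mitotic sum stood at 267 to 455 CPM in the 6 samples at 72 h and at 32.3 to 55.1 CPM elsewhere, while the transport sum stayed between 341 and 495 CPM in all samples.

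The 15 transport kinesins together were at 465, 490 and 453 CPM in the NI samples. Their sum was 455, 341 and 395 CPM after HS and 409, 495 and 450 CPM after FT at 72 h, so that both 72 h groups overlapped NI. In later samples it ranged from 380 to 424 CPM after HS and from 383 to 420 CPM after FT. These were all below the lowest NI sample. The group means of the sum were 470 CPM in NI and 393 to 406 CPM in the later groups. The mainly neuronal *Kif5a* made up 54.8 CPM of it in NI and 16.4 to 26.5 CPM later. *Kif5c*, also neuronal, made up 16.3 CPM in NI and 6.55 to 9.58 CPM later. Shares of this sum therefore also move with these 2 genes. Of the mitotic and transport sums added up, the mitotic kinesins made up 6.91% ± 0.64 (SD, n = 3) in NI, 45.2% ± 4.87 at 72 h after HS and 39.8% ± 5.01 at 72 h after FT. At later times their share was 11.1% and 11.1% after HS and 9.16% and 9.18% after FT.

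Members that move chromosomes showed some of the highest rises. *Kif22*, a motor bound to chromosome arms (GRCm38 chr7:127027729-127042471), was measured at 3.28, 2.70 and 2.40 CPM in NI, at 79.0, 40.9 and 37.7 CPM after HS and at 49.9, 28.9 and 48.6 CPM after FT at 72 h. *Kif4*, a chromosome-bound motor that also works with Prc1 at the midzone (chrX:100625737-100727214), was at 1.73, 1.42 and 1.53 CPM in NI, 36.7, 22.9 and 17.0 CPM after HS and 24.7, 20.4 and 19.3 CPM after FT. *Kif2c*, which removes tubulin from microtubule ends at centromeres, was at 4.23, 1.54 and 2.30 CPM in NI, 57.9, 35.0 and 26.0 CPM after HS and 48.5, 30.4 and 32.6 CPM after FT. None of these 72 h samples came near the NI samples. The changes of *Kif22* were 3.94 ± 0.31 (HS; limma adjusted p = 6.38e-09) and 3.67 ± 0.31 (FT; adjusted p = 1.88e-08). Those of *Kif4* were 3.59 ± 0.25 and 3.41 ± 0.25, and those of *Kif2c* 3.66 ± 0.38 and 3.62 ± 0.38. Without strand, reads of *Kif4* and of *Pdzd11*, whose exons on the other strand overlap 15.1% of its exon bases, cannot be told apart.

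*Kif18a*, which damps the swinging of chromosomes at the metaphase plate, was at 2.03, 1.54 and 2.40 CPM in NI, 13.2, 8.86 and 9.23 CPM after HS and 9.49, 7.59 and 8.28 CPM after FT at 72 h. Its relative *Kif18b*, which shortens astral microtubules, was at 0.834, 0.515 and 0.863 CPM in NI, 7.96, 6.50 and 4.51 CPM after HS and 7.24, 6.13 and 6.23 CPM after FT. Again the groups did not overlap. The log2 changes were 2.13 ± 0.33 and 1.86 ± 0.33 for *Kif18a* and 2.44 ± 0.26 and 2.52 ± 0.26 for *Kif18b*.

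Motors that set up the bipolar spindle rose as well. *Kif11*, which slides antiparallel microtubules and so drives the poles apart (chr19:37376403-37421859), was at 3.63, 4.12 and 4.89 CPM in NI, 52.2, 40.0 and 38.1 CPM after HS and 35.1, 25.4 and 33.3 CPM after FT at 72 h. Its NI values rested on 32 to 61 reads, and its changes of 3.21 ± 0.21 and 2.75 ± 0.21 had adjusted p-values of 6.55e-10 and 6.73e-09 (limma). *Kif15*, which helps to keep the poles apart, was at 5.36, 6.05 and 6.62 CPM in NI, 34.0, 22.1 and 23.2 CPM after HS and 22.2, 26.3 and 22.5 CPM after FT. The samples of *Kif15* did not overlap between NI and 72 h, with changes of 2.03 ± 0.24 and 1.89 ± 0.24.

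The members of the midzone and of cytokinesis held the single highest change. *Kif20a*, which brings the chromosomal passenger complex to the midzone, was at 3.93, 1.29 and 1.53 CPM in NI, 72.4, 40.5 and 38.3 CPM after HS and 48.3, 43.2 and 46.7 CPM after FT at 72 h. These are rises of 4.27 ± 0.32 and 4.20 ± 0.32, or 19.3-fold and 18.4-fold (limma adjusted p = 3.53e-09 and 4.75e-09). Exons of *Cdc23* on the other strand overlap 29.3% of the exon bases of *Kif20a*, and reads of the pair cannot be told apart there. *Kif23*, the motor of the centralspindlin complex that bundles midzone microtubules, was at 2.80, 1.54 and 2.59 CPM in NI, 53.7, 29.8 and 28.3 CPM after HS and 41.2, 29.5 and 36.0 CPM after FT. Its changes were 3.72 ± 0.34 and 3.70 ± 0.34. *Kif20b* was at 4.41, 6.56 and 6.04 CPM in NI, 31.8, 26.9 and 33.6 CPM after HS and 35.9, 40.0 and 27.2 CPM after FT, and *Kif14*, which recruits citron kinase to the midbody, at 2.56, 3.60 and 3.07 CPM in NI, 13.3, 8.39 and 6.56 CPM after HS and 11.1, 7.30 and 8.64 CPM after FT. Both were separate from NI in all 72 h samples. Their changes were smaller, at 2.35 ± 0.20 and 2.50 ± 0.20 for *Kif20b* and 1.43 ± 0.31 and 1.40 ± 0.31 for *Kif14*. With columns scaled to 1 total, *Kif14* fell short of the 2-fold limit at 0.97 (HS) and 0.98 (FT).

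The minus-end motor *Kifc1*, which focuses spindle poles, and its close relative *Kifc5b* stood apart from the other mitotic members. *Kifc1* was at 0.715, 0.772 and 0.480 CPM in NI, at 2.25, 1.04 and 3.69 CPM after HS and at 0.998, 0.584 and 1.69 CPM after FT at 72 h. The HS samples lay above NI, and the FT samples overlapped NI. Its change was 1.18 ± 0.33 after HS (limma adjusted p = 0.0108) and 0.41 ± 0.33 after FT (adjusted p = 0.384). The call after HS was lost without HS replicate 3 (0.84) or without NI replicate 3 (1.07), with 1 CPM added (0.93) and with columns scaled to 1 total (0.86), and adjusted p ranged from 0.00159 to 0.0712 over its alternatives. *Kifc5b* was at 0.655, 0.643 and 1.25 CPM in NI, 0.661, 0.660 and 0.410 CPM after HS and 0.874, 1.46 and 1.69 CPM after FT, and was DE after neither lesion (-0.30 ± 0.32 and 0.45 ± 0.32). The genes share 38.6% of the 50-base windows of *Kifc1* transcripts and 36.6% of those of *Kifc5b*, so that the division of reads between them is uncertain, and both rested on few reads (2 to 68 at 72 h).

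**Figure D2:**
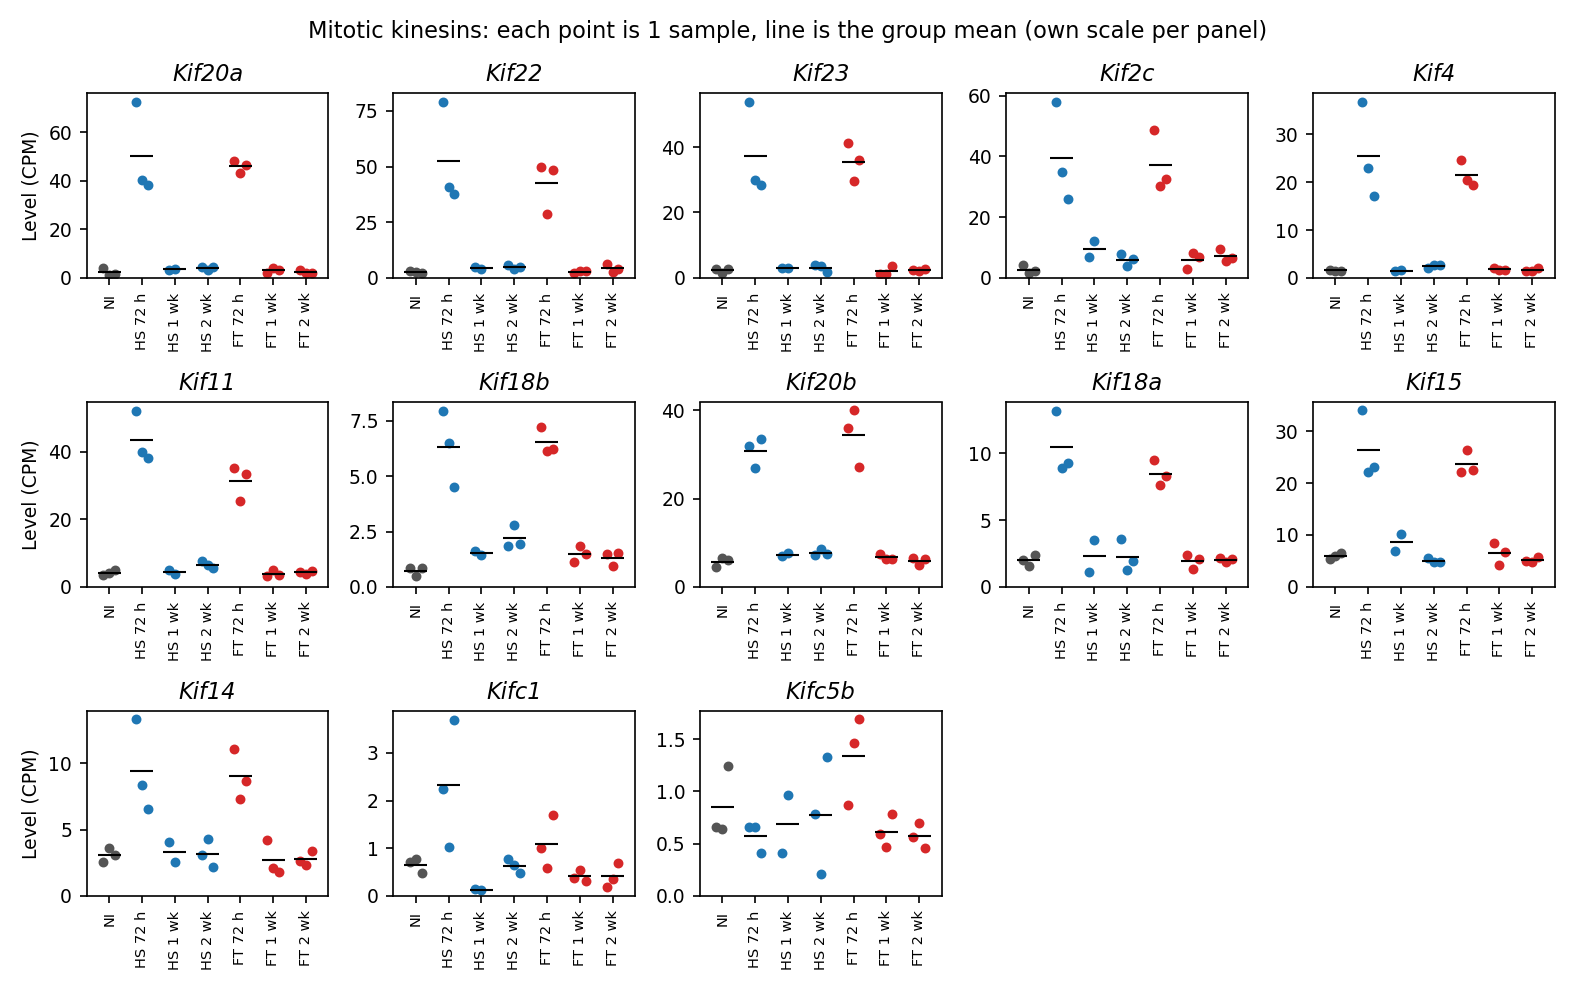
Level in CPM (vertical axes, from 0, each panel on its own scale) of the 13 mitotic kinesins in each sample (points) by group (horizontal axes), with group means as lines and panels ordered by the change at 72 h after HS. In 11 panels all 6 samples at 72 h stand above all NI samples; *Kifc1* does so after HS alone, and *Kifc5b* after neither lesion.

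Within the 72 h HS group, replicate 1, the deepest library with 34.1 M reads, held the highest value for 11 of 13 mitotic kinesins. Leaving out any single sample left 11 or 12 mitotic kinesins DE after HS and 11 after FT. The rise thus did not rest on that library.

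The proximal promoters of the mitotic members shared letters that the rule did not use. Genes expressed late in the cell cycle often carry a CHR (cell cycle genes homology region, TTTGAA) near their start, alone or with a CCAAT box (CCAAT), and genes of the earlier S phase often an E2F site (searched as TTTGGCGC or TTTCCCGC). RefSeq promoters of 250 bases before to 50 after the start were at hand for 12 of 13 mitotic members, all but *Kif20a*. A CHR on either strand was found in 11 of these 12 (91.7%), against 17.9% of 32851 promoters, and in 9 of 12 within 50 bases of the start (75%), against 4.94%. A CCAAT box was in 8 of 12 (66.7%), against 37.4%, and all 8 also held a CHR, a pairing found in 6.95% of all promoters. An E2F site was in *Kif15* and *Kif18a* only (2 of 12, against 1.56%), and *Kif18a* was the member with no CHR. Transport kinesins held a CHR in 1 of 12 promoters of 10 genes (*Kif1a*) and the other members in 2 of 12 promoters of 10 genes (*Kif26b* and *Kif27*). Such matches describe letters and not binding sites, and their part in the levels was not tested.

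The 100 bases before the start are printed for 4 mitotic members, to show the spacing of these letters, and for 3 transport members without a CHR in the window. They are from RefSeq on GRCm38.p6, in the direction of transcription, and capitals mark CCAAT, CHR and E2F matches on either strand.
Kif11, chr19:37376282-37376381, plus strand: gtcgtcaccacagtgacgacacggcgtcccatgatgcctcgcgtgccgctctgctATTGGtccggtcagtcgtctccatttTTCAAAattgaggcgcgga
Kif22, chr7:127042421-127042520, minus strand: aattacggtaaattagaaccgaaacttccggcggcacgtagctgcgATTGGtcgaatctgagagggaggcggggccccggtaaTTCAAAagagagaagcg
Kif15, chr9:122950981-122951080, plus strand: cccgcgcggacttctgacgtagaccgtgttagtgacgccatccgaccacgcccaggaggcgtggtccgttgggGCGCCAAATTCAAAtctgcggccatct
Kif18b, chr11:102925125-102925224, minus strand: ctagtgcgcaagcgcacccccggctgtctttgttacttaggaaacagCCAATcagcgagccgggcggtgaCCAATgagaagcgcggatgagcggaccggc
Kif3a, chr11:53567269-53567368, plus strand: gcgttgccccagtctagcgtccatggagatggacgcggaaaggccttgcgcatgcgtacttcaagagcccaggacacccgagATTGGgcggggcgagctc
Kif3b, chr2:153291316-153291415, plus strand: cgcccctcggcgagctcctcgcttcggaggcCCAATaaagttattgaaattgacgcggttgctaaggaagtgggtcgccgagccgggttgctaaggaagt
Kif5c, chr2:49619186-49619285, plus strand: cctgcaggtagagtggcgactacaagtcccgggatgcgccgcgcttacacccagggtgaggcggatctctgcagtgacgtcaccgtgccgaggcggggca

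In *Kif11* and *Kif22* a reversed CCAAT box (ATTGG) stood upstream of a reversed CHR (TTCAAA). The CHR began at base -19 of *Kif11* and at base -17 of *Kif22*, counted from the start. *Kif15* held an E2F match (GCGCCAAA) directly beside a reversed CHR, with no shared base and no CCAAT box in the window. *Kif18b* carried a pair of forward CCAAT boxes, and its CHR began at base 4 after the start, outside the printed stretch. The stretch of *Kif5c* held none of the 3 kinds of match.

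Other genes of the spindle moved with the mitotic motors. Of 16 spindle partners, a list of kinesin cargoes, regulators and midzone proteins, 15 were higher at 72 h after HS and 15 after FT. Their medians were 3.45 and 3.38, and 9.08% and 8.14% of all genes were higher. At 2 weeks after HS, 2 of the 16 were still higher, against 2.43% of all genes. At the other later times none of the 16 was. The exception at 72 h was *Incenp*, the scaffold of the passenger complex (0.06 ± 0.23 and 0.39 ± 0.23). *Cenpe*, a kinetochore kinesin whose symbol does not match the rule, was at 5.84, 3.60 and 6.33 CPM in NI, 56.5, 54.6 and 50.2 CPM after HS and 54.0, 65.4 and 57.8 CPM after FT at 72 h, and rose by 3.27 ± 0.23 and 3.40 ± 0.23. The partners with the highest changes were *Cdca8* (4.44 and 3.89), *Plk1* (4.36 and 4.23), *Aurka* (4.24 and 3.99) and *Nusap1* (4.05 and 3.79), in log2 after HS and FT. All 8 proliferation markers were higher at 72 h after both lesions, against 9.08% (HS) and 8.14% (FT) of all genes, with medians of 3.47 and 3.42. *Mki67*, which coats mitotic chromosomes, went from 5.96, 7.72 and 6.23 CPM in NI to 140, 83.0 and 108 CPM after HS and 141, 126 and 123 CPM after FT.

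Markers of monocytes and of macrophages other than microglia also moved at 72 h. The list holds both markers of cells from the blood and markers of macrophages that reside at the borders of the cord, such as *Mrc1* and *Lyve1*. Of 9 measured, 3 were higher after HS (*Ccr2*, *Chi3l3* and *Arg1*), against 9.08% of all genes. After FT, 5 were higher (these 3, *Ly6c2* and *Plac8*) and 2 lower (*Mrc1* and *Lyve1*), against 8.14% and 4.09% of all genes. The summed level of the 9 markers was 134 to 163 CPM in NI. At 72 h it reached 172 to 256 CPM in the HS samples and 162 to 543 CPM in the FT samples, and later samples held 45.0 to 130 CPM. None of the 9 was at 0 in a whole group. Neutrophil markers (5 measured) summed to 17.6 to 69.0 CPM in NI and to 7.59 to 9.97 CPM in the HS samples at 72 h. There *Camp* was lower, 1 of 5 against 4.31% of all genes. In the FT samples at 72 h the neutrophil sum was 11.98 to 32.6 CPM. The part of infiltrating cells in the rise of mitotic kinesins was not tested.

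**Figure D3:**
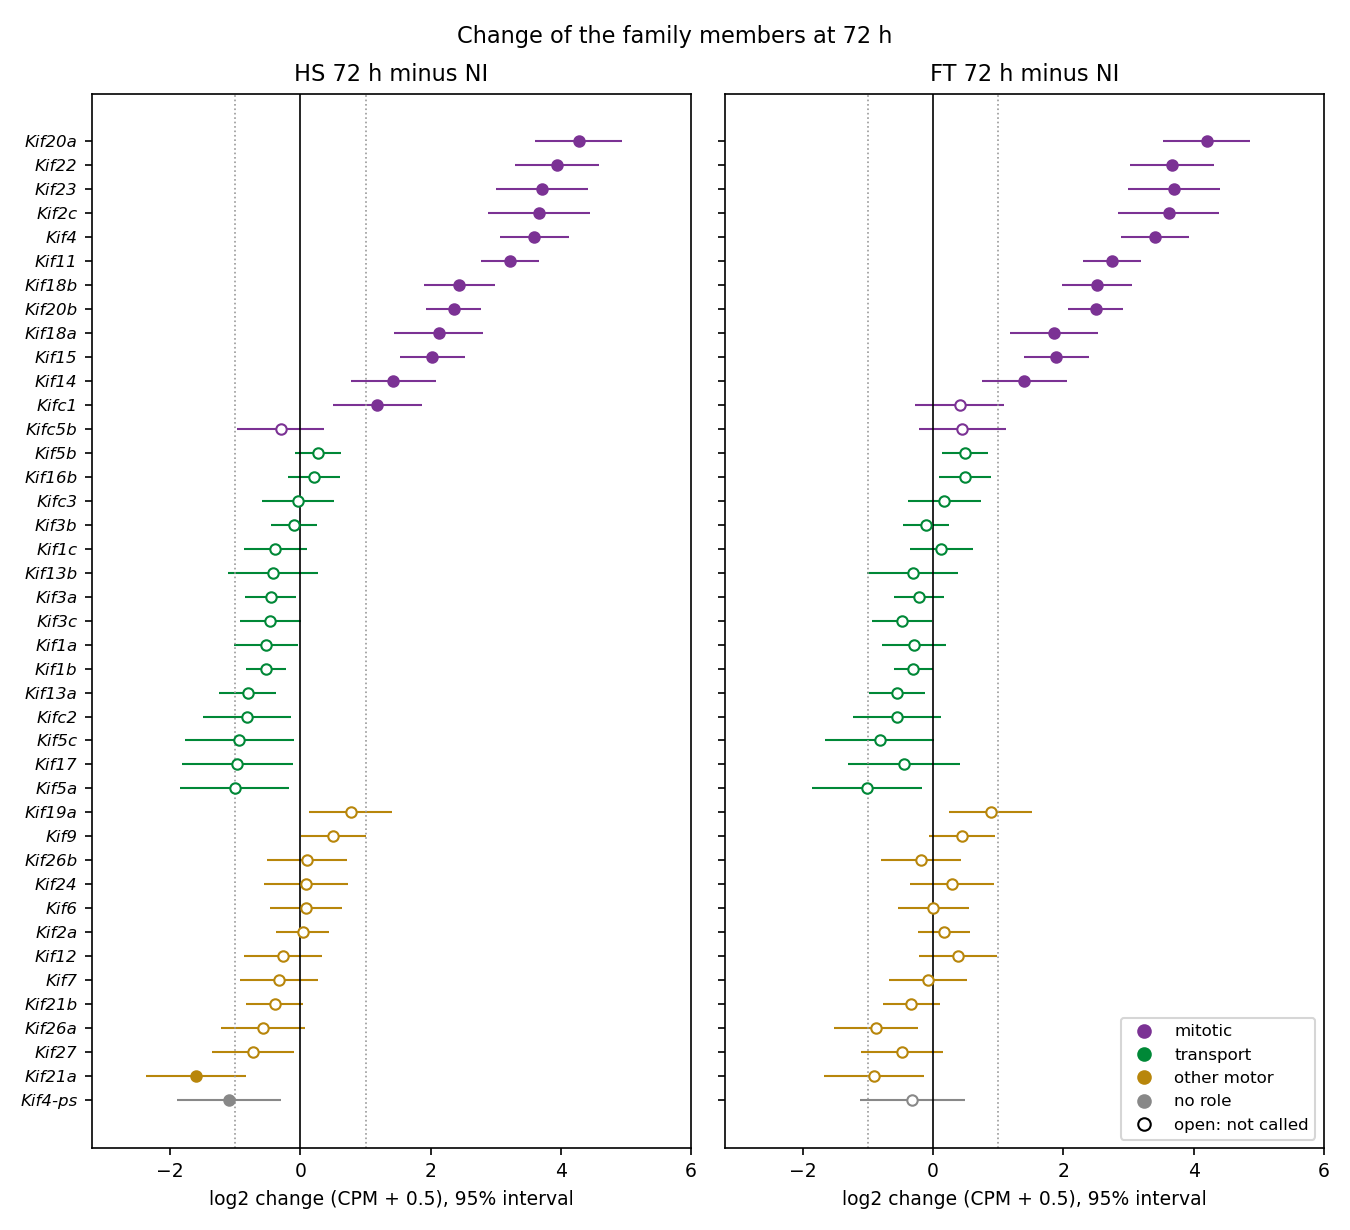
Log2 change of CPM + 0.5 against NI (horizontal axes) with its 95% interval for all 41 members (vertical axis, by role) at 72 h after HS (left) and after FT (right); filled points are DE and dotted lines mark 2-fold. The mitotic members from *Kif20a* to *Kif14* lie to the right of the 2-fold line on both sides, and the only filled points to the left are *Kif21a* and *Kif4-ps* after HS.

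After 72 h the mitotic kinesins fell again. In direct comparisons between times, 12 mitotic kinesins were lower at 1 week than at 72 h after HS (against 4.07% of all genes) and 12 at 2 weeks (against 3.37%), that is all but *Kifc5b*. After FT, 11 were lower at 1 week (against 2.62%) and 11 at 2 weeks (against 2.68%), all but *Kifc1* and *Kifc5b*. Over the 13, the median log2 differences at 1 and 2 weeks amounted to -2.05 and -2.26 (HS) and -2.25 and -2.28 (FT), where the medians over all genes were 0.07, 0.05, 0.03 and 0.05. *Kif4*, as an example, ranged from 1.39 to 2.78 CPM in the 11 later samples (median 1.70 CPM), and *Kif20a* from 1.93 to 4.68 CPM (median 3.42 CPM). Between 1 and 2 weeks, no member was DE after HS or FT by limma, against 0.0119% and 0.0714% of all genes. At an unadjusted p under 0.05 there were 3 and 0 of 41 members, and 789 and 773 of all 16810 genes.

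Few mitotic kinesins were still called higher than NI at later times. *Kif2c* was DE at 1 week after HS, at 6.94 and 12.1 CPM (1.69 ± 0.42; limma adjusted p = 0.0296), and this was 1 of 13 against 1.70% of all genes. It was also DE at 2 weeks after FT, at 9.55, 5.49 and 6.72 CPM (1.33 ± 0.38; adjusted p = 0.0277), which was 1 of 13 against 3.53%. In both groups all *Kif2c* values exceeded the highest NI value of 4.23 CPM. *Kif18b* was DE at 2 weeks after HS, at 1.87, 2.78 and 1.93 CPM (1.12 ± 0.26; adjusted p = 0.0115), again 1 of 13, against 2.43% of all genes. No mitotic kinesin was DE at 1 week after FT, where 2.86% of all genes were higher. At an unadjusted p under 0.05 there were 2 of 13 mitotic kinesins at 1 and at 2 weeks after FT, and 3060 and 3211 of all 16810 genes. After HS there were 3 of 13 at 1 week and 7 of 13 at 2 weeks, and 2147 and 2708 of all genes. The median changes of the 13 at 1 and 2 weeks after HS were 0.36 and 0.44, against 0.02 and -0.01 over all genes. After FT they were -0.05 and 0.06, against -0.03 and -0.02. Upward separation from NI without overlap was seen for 6 mitotic kinesins at 1 week (20.2% of all genes) and 5 at 2 weeks (14.5%) after HS, and for 1 at 1 week (11.4%) and 2 at 2 weeks (17.3%) after FT.

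These later calls depended on single samples. *Kif2c* at 1 week lost its call without NI replicate 2 (1.41) or 3 (1.64), or with either HS sample left out (2.07 and 1.31), when the lone sample was assumed to vary like the other groups. At 2 weeks after FT it was lost without NI replicate 2 (1.06) or 3 (1.28) or FT replicate 1 (1.13) or 3 (1.37). *Kif18b* was lost without NI replicate 2 (0.98) or HS replicate 2 (0.97). Over these alternatives, adjusted p ranged from 0.00317 to 0.419 and from 0.0107 to 0.185 for *Kif2c* and from 0.00664 to 0.0851 for *Kif18b*.

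Per kb of exon, and averaged over the 7 groups, *Kif5b* stood first of 41 members with 18.5 CPM per kb, followed by *Kif3a* with 9.37, *Kif21b* (no transport member) with 9.31, *Kif3b* with 5.57 and *Kif1b* with 4.20 CPM per kb. *Kif3a* and *Kif21b* ranged over 6.12 to 12.1 and 6.68 to 12.8 CPM per kb, so their order is not set. *Kif20a*, the highest mitotic member, was at 3.70 CPM per kb on average and ranged from 0.297 to 16.7 CPM per kb. The order changed with time: *Kif5b* came first in all 7 groups, *Kif20a* came second at 72 h after HS (11.6, against 8.41 CPM per kb for *Kif3a*) and after FT (10.62, against 10.02), and *Kif17* was among the lowest members.

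No transport kinesin was DE at 72 h after HS or FT, where 9.08% and 8.14% of all genes were higher and 4.31% and 4.09% lower. At an unadjusted p under 0.05 there were 8 and 5 of 15, and 6608 and 6156 of all genes. The median change of the 15 was -0.46 after HS and -0.30 after FT, against -0.11 and -0.09 over all genes. With columns scaled to 1 total, 7 were DE after HS and 3 after FT. Under this scaling, 3201 and 2743 of all 16810 genes were lower and 619 and 621 higher. The median over all genes with columns scaled to 1 total was itself -0.52 and -0.48. All values lay below NI for 6 and 4 of 15, as for 24.9% and 22.7% of all genes. *Kif13a*, an endosomal motor, was at 23.4, 26.6 and 32.4 CPM in NI and at 17.7, 13.1 and 15.6 CPM at 72 h after HS, without overlap. Its change of -0.81 ± 0.21 (limma adjusted p = 0.00629) and that of *Kif1b*, which carries mitochondria and synaptic vesicle precursors (-0.53 ± 0.15, adjusted p = 0.0102), passed the p limit and stayed under 2-fold.

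*Kif5b*, the heavy chain of conventional kinesin that most cell types use, was at 116, 138 and 139 CPM in NI. At 72 h it was at 180, 129 and 166 CPM after HS and at 161, 225 and 170 CPM after FT, and the FT samples lay above NI. The change was 0.27 ± 0.17 after HS and 0.49 ± 0.17 after FT (limma adjusted p = 0.25 and 0.0411), under 2-fold in both. At later times it ranged from 119 to 157 CPM. Its share of the transport sum was 27.8% in NI, 39.9% and 41.0% at 72 h after HS and FT, and 34.1% to 36.8% in the later groups. This share also moves with the other members of the sum.

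The motor of intraflagellar and vesicle transport made of *Kif3a* and *Kif3b* was not DE at any time. *Kif3b* was at 30.6, 34.0 and 34.4 CPM in NI, 32.3, 26.4 and 34.2 CPM after HS and 32.8, 26.0 and 33.2 CPM after FT at 72 h, and its changes in the 6 comparisons with NI lay between -0.11 and -0.02. Its 95% interval at 72 h after HS ran from -0.45 to 0.25. *Kif3a* was at 40.5, 43.5 and 40.6 CPM in NI, 28.0, 32.8 and 29.7 CPM after HS and 32.3, 42.1 and 33.4 CPM after FT at 72 h. At 1 week after FT it was at 21.9, 27.7 and 28.8 CPM, all below NI (-0.67 ± 0.19; limma adjusted p = 0.0315), again under 2-fold.

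The neuronal heavy chains *Kif5a* and *Kif5c* were lower at late times after FT. *Kif5a* was at 70.7, 63.1 and 30.8 CPM in NI, 55.8, 19.6 and 14.8 CPM after HS at 72 h, 32.4 and 20.7 CPM at 1 week and 15.7, 28.2 and 18.4 CPM at 2 weeks. After FT it was at 28.0, 21.9 and 26.3 CPM at 72 h, 11.9, 20.8 and 16.5 CPM at 1 week and 11.0, 28.0 and 17.2 CPM at 2 weeks. NI replicate 3 was the low sample of its group, and HS replicate 1 the high one at 72 h. The FT samples lay below NI at all 3 times. *Kif5a* fell by 1.66 ± 0.41 on the log2 scale at 1 week after FT (limma adjusted p = 0.0127), the 1 transport kinesin of 15 called lower against 1.20% of all genes, and by 1.54 ± 0.41 at 2 weeks (adjusted p = 0.018).

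*Kif5c* was at 20.6, 17.8 and 10.6 CPM in NI, 11.6, 5.09 and 8.41 CPM after HS and 7.36, 11.4 and 7.75 CPM after FT at 72 h. At 1 and 2 weeks after HS it was at 8.58 and 10.6 CPM and at 3.12, 9.83 and 9.42 CPM, and at 1 week after FT at 6.97, 6.42 and 7.02 CPM. At 2 weeks after FT it was at 3.28, 11.4 and 4.96 CPM, where replicate 2 overlapped NI, and it fell by 1.37 ± 0.40 (limma adjusted p = 0.0366). With *Kif5a* this gave 2 of 15 lower at 2 weeks, against 1.36% of all genes. At 1 and 2 weeks after HS no transport kinesin was DE, where 0.482% and 0.797% of all genes were lower. At an unadjusted p under 0.05 there were 3 and 4 of 15 by limma, and 2147 and 2708 of all 16810 genes. All values lay below NI for 5 and 6 of 15 transport kinesins at 1 and 2 weeks after HS (17.1% and 10.3% of all genes) and for 6 and 4 after FT (10.1% and 13.3%).

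All 3 of these calls were lost without NI replicate 1 or without NI replicate 2: *Kif5a* at 1 week was then at -1.43 or -1.52, *Kif5a* at 2 weeks at -1.31 or -1.39 and *Kif5c* at -1.18 or -1.28. Those at 2 weeks were also lost without FT replicate 1 (-1.21 and -1.01) or replicate 3 (-1.53 and -1.27). Adjusted p ranged over the alternatives from 0.000645 to 0.0764, from 0.00251 to 0.12 and from 0.00643 to 0.224, in the same order.

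Transcripts of other cell types moved beside *Kif5a* and *Kif5c*. Of 12 neuron markers, 4 fell and 1 rose at 72 h after HS. After FT, 5 fell and 1 rose at 72 h and at 1 week, and 3 fell and 1 rose at 2 weeks. In the same order, 4.31%, 4.09%, 1.20% and 1.36% of all genes were lower, and 9.08%, 8.14%, 2.86% and 3.53% higher. Neuron markers that fell included the neurofilament *Nefl* and the synaptic *Snap25*. *Nefl* was at 18.0, 14.9 and 6.23 CPM in NI and at 1.68, 5.49 and 1.76 CPM at 2 weeks after FT, and *Snap25* at 39.4, 28.1 and 21.7 CPM and at 3.84, 14.1 and 9.09 CPM. The sample with the highest *Kif5a* of a group was also highest in *Nefl* in 6 of 7 groups and in *Snap25* in 6 of 7, and the sample with the highest *Kif5c* was highest in *Nefl* in 3 of 7 and in *Snap25* in 4 of 7. The 12 neuron markers had sums of 118 to 158 CPM (NI) and 105 to 177 CPM (injured). None of 8 oligodendrocyte markers was DE in any comparison with NI. Of 8 astrocyte markers, 4 fell and 1 rose at 1 week after FT, where 1.20% of all genes were lower and 2.86% higher. At 2 weeks after FT, 5 fell and 0 rose, where 1.36% were lower and 3.53% higher. After HS, 4 fell at 1 week and 5 at 2 weeks, against 0.482% and 0.797% of all genes. No marker of the neuron, oligodendrocyte or astrocyte lists was at 0 in a whole group. The part of neuronal or glial RNA in the falls of *Kif5a* and *Kif5c* was not tested.

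**Figure D4:**
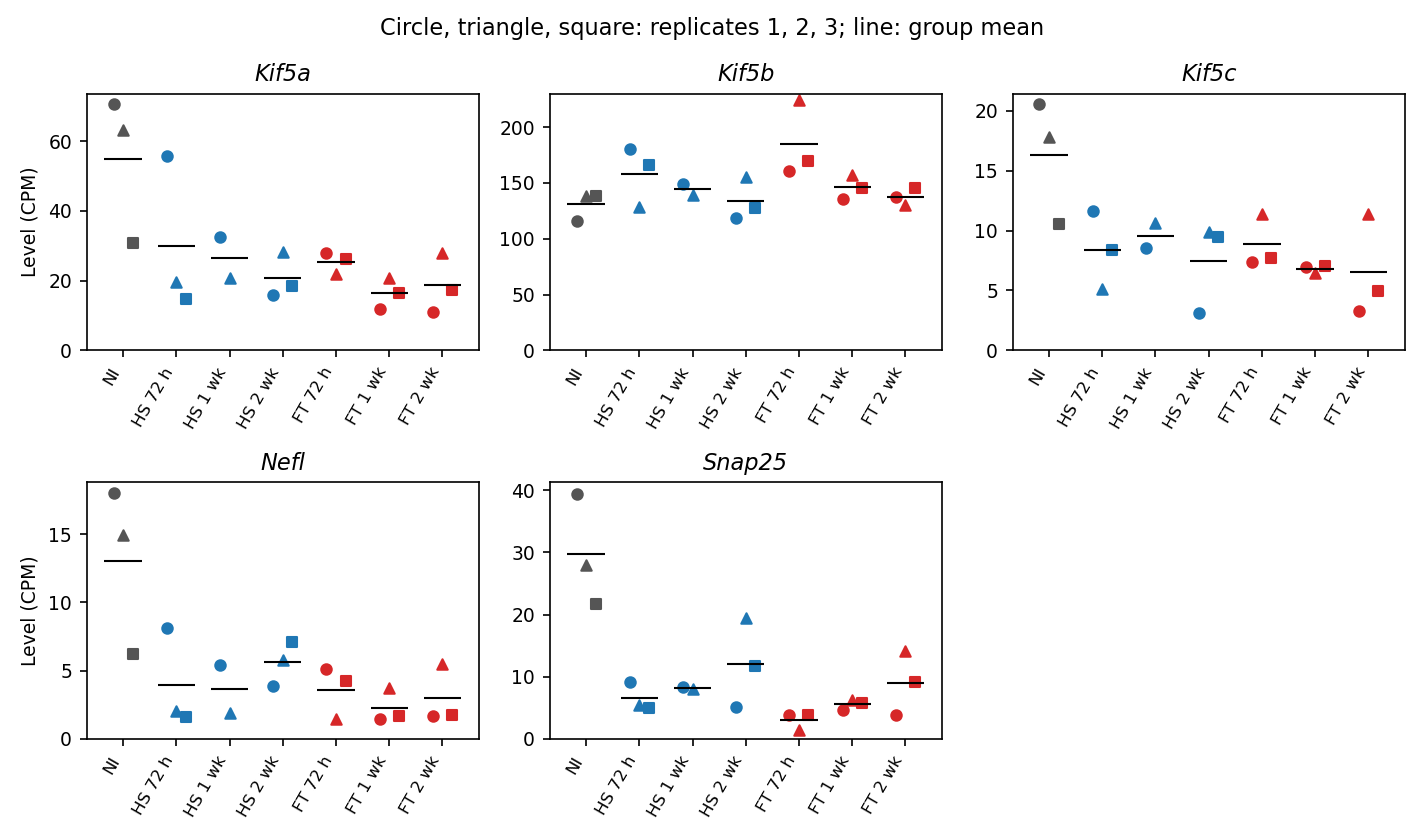
Level in CPM (vertical axes, from 0) of the heavy chains *Kif5a*, *Kif5b* and *Kif5c* and of the neuronal *Nefl* and *Snap25* in each sample, by group (horizontal axes); circles, triangles and squares are replicates 1, 2 and 3, and lines are group means. *Kif5b* stays at 116 to 225 CPM, while NI replicate 3 (square) and FT replicate 2 at 2 weeks (triangle) are the lowest and the highest of their groups in *Kif5a*, *Kif5c*, *Nefl* and *Snap25*.

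The remaining transport members ranged as follows over the 20 samples. The vesicle motors *Kif1a* and *Kif1c* were at 9.05 to 21.2 and 8.88 to 22.4 CPM, and the endosomal *Kif13b* and *Kif16b* at 9.05 to 26.8 and 10.6 to 19.0 CPM. *Kif3c*, *Kifc2* and *Kifc3* were at 3.97 to 8.37, 1.44 to 6.43 and 2.78 to 8.36 CPM. *Kif17*, a dendritic and ciliary motor, was the lowest, at no more than 1.48 CPM, and had no read in replicate 2 at 72 h after HS or replicate 2 at 2 weeks after HS, which allows up to 0.283 and 0.641 CPM (3 reads). None of these 8 was DE in a comparison with NI. Exons of neighbouring genes overlap 35.3% of the exon bases of *Kif3c* and 24.1% of those of *Kifc3*.

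Among the 12 members that are neither mitotic nor transport kinesins, 1 was DE at 72 h after HS and none in the other comparisons with NI. *Kif21a*, which slows microtubule growth at the cell cortex, was at 6.85, 7.98 and 6.81 CPM in NI and at 3.01, 3.02 and 0.820 CPM at 72 h after HS. It fell by 1.60 ± 0.37 (limma adjusted p = 0.00259), 1 of 12 against 4.31% of all genes, and this call was kept in all 17 alternatives. At 72 h after FT it was at 3.49, 4.38 and 3.03 CPM, below NI too, with a change of -0.91 ± 0.37 (adjusted p = 0.0769). Its later values of 1.68 to 5.92 CPM were all below NI. *Kif21b*, by contrast the most abundant of them, was at 111, 137 and 133 CPM in NI and 81.3 to 156 CPM in the injured samples.

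At 72 h after FT, *Kif19a*, which shortens ciliary microtubules (0.89 ± 0.31; limma adjusted p = 0.0392), and *Kif26a*, a relative without motor activity (-0.87 ± 0.31; adjusted p = 0.0449), passed the p limit under 2-fold. *Kif2a*, a close relative of *Kif2c* that also trims microtubules in cells that do not divide, was at 18.3 to 32.4 CPM in all samples. It differed from NI by 0.03 ± 0.19 (HS) and 0.17 ± 0.19 (FT) at 72 h. *Kif9*, *Kif24*, *Kif7*, *Kif12*, *Kif26b*, *Kif27* and *Kif6* ranged from 0.374 to 13.8 CPM, and none was DE. The pseudogene *Kif4-ps* was at 0.953, 0.901 and 1.44 CPM in NI and 0.330, 0.188 and 0.205 CPM at 72 h after HS (1 to 10 reads), with a change of -1.10 ± 0.39 (limma adjusted p = 0.0398). Without any 1 of the 6 samples compared it was no longer DE (-1.18 to -0.95). It shared 0.366% of its 50-base windows with *Kif4*.

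The severity of the lesion was addressed by comparing FT with HS at each time. No kinesin was DE in any of the 3 comparisons, and neither was any other gene (0.00% of 16810) by limma. At an unadjusted p under 0.05 there were 5, 0 and 2 of 41 kinesins at 72 h, 1 week and 2 weeks, and 505, 724 and 438 of all genes. At 72 h the mitotic members differed by -0.77 (*Kifc1*) to 0.76 (*Kifc5b*), with a median of -0.07, and the 95% half-widths of the 41 differences were 0.30 to 0.85. *Kif11* was lower after FT by 0.47 ± 0.21 (95% interval -0.91 to -0.02; unadjusted p = 0.0413, limma adjusted p = 1.00). The change over time did not differ between lesions for any kinesin either by the limma interaction terms (0.00% of all genes), with 2, 0 and 0 of 41 at an unadjusted p under 0.05 for 1 week against 72 h, 2 weeks against 72 h and 2 weeks against 1 week, and 661, 435 and 352 of all genes. These comparisons do not show that the lesions act alike.

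Genes that work with transport kinesins were compared with NI as well. Of 16 measured light chains and adaptors (18 listed), 1 was lower at 72 h, against 4.31% (HS) and 4.09% (FT) of all genes. This was *Mapk8ip1*, the scaffold that links kinase signalling to kinesin. It was at 4.17, 4.89 and 3.93 CPM in NI, 1.52, 0.660 and 0.410 CPM after HS and 0.125, 0.876 and 1.25 CPM after FT. It fell by 1.90 ± 0.44 and 2.07 ± 0.44 (limma adjusted p = 0.00268 and 0.00146). It was lower at 2 weeks after both lesions as well, against 0.797% (HS) and 1.36% (FT) of all genes. *Plekhm2*, which links lysosomes to kinesin, was higher at 2 weeks (1.07 ± 0.31 after HS and 1.28 ± 0.31 after FT). Of all genes, 2.43% and 3.53% were higher in these comparisons. Among 21 genes of dynein and dynactin, the motor that walks the other way, *Dynlt3*, a light chain, was the one DE gene. It was higher at 72 h (1.58 ± 0.23 and 1.56 ± 0.23), where 9.08% (HS) and 8.14% (FT) of all genes were higher. The list medians at 72 h after HS and FT were -0.22 and -0.21 for the adaptors and 0.42 and 0.29 for dynein. Over all genes they were -0.11 and -0.09.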

How the data were processed

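Sorted cells of 20 samples in 7 groups were sequenced as polyadenylated RNA. According to the methods and the submitters' processing notes, the authors removed adapter reads, mapped to mm10 with TopHat2 2.0.9, counted per gene with HTSeq 0.5.4p3, dropped genes that did not reach 10 reads in 2 replicates and scaled the libraries with edgeR 3.3.6. Strandedness is not stated in the sources used here. The signal that the authors deposited is a normalized read count, taken as CPM of scaled libraries: all 336200 values (100%) were whole multiples of 1 read within 0.001 of its step. These recovered reads gave the depths. Spread between replicates exceeded sampling noise in every pair.

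Values were fitted as log2(CPM + 0.5) with limma 3.58.1 (R 4.3.3) over all 20 samples, with the intensity trend and a mean for each group. Pairs of groups and differences between them were tested with Benjamini-Hochberg adjustment over 16810 genes. Alternatives were 0.1 or 1 CPM added, a filter of at least 1 CPM in 2 samples, 2 groups fitted alone, median-of-ratios, quantile or total scaling, no fold limit, a replicate block, edgeR 4.0.16 (quasi-likelihood) and DESeq2 1.42.0 on recovered reads, and each sample left out in turn (20 fits). Same-numbered HS and FT samples at 72 h deviated together in all 3 pairs (0.143 to 0.267), as no label explains, so that comparison was also fitted in pairs. The scripts were tested on simulated data.

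Members and lists were chosen with earlier results of these data known. Every sample is given for members called against NI, for the 3 most abundant transport kinesins per kb and for *Kifc1* and *Kifc5b*; others are given by range. Partner genes are named where called, up to 4 a list by change at 72 h, plus *Mki67* and *Cenpe*. The per-sample values of *Kif13a* and the naming of *Nefl*, *Snap25*, *Incenp*, *Camp*, *Ly6c2* and *Plac8* were chosen after their values were seen. Some marker genes are not reported here. At 72 h, astrocyte markers (8) had 1 higher and 4 lower after HS and 2 higher and 1 lower after FT. Microglia markers (10) had 1 higher (*Fcrls*) and 1 lower (*Tmem119*) at 72 h after both. Of all genes, 9.08% (HS) and 8.14% (FT) were higher at 72 h, and 4.31% and 4.09% lower. Of the marker lists not described with the kinesins, 6 measured ependymal markers and 6 endothelial markers had none DE at 72 h. Positions are from GENCODE vM21 (GRCm38) and promoters from RefSeq.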

Additional observations from a re-analysis of the deposited data

Results flagged for a closer look

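The level of the mitotic kinesins differed between times after the same lesion by a direct limma test (Benjamini-Hochberg adjusted p over 16810 genes, at least 2-fold), with 12 kinesins DE between 1 week and 72 h after HS, 12 between 2 weeks and 72 h after HS, 11 between 1 week and 72 h after FT and 11 between 2 weeks and 72 h after FT. All were lower at the later time, and the largest differences after HS and after FT were those of *Kif4* at 1 week after HS (-3.61 ± 0.28) and of *Kif20a* at 2 weeks after FT (-3.95 ± 0.32).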

How the results depend on the processing

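Of 26 calls of mitotic kinesins against NI, 20 were kept in every alternative run and 6 were lost in at least 1, whereas all 3 calls of transport kinesins were lost in at least 1; no named change turned its direction. At 72 h, mitotic calls were 11 (HS) and 11 (FT) with 1 CPM added and 10 and 10 with columns scaled to 1 total. They moved to 0 at 2 weeks after HS with 1 CPM added or with columns scaled to 1 total, and to 0 at 2 weeks after FT with columns scaled to 1 total. Transport calls, in order with 2 groups fitted alone, quantile normalization, columns scaled to 1 total, no fold limit and DESeq2, became 0, 1, 7, 2 and 0 at 72 h after HS, 1, 1, 3, 1 and 1 at 72 h after FT, 1, 1, 2, 0 and 1 at 2 weeks after HS, and 2, 1, 3, 2 and 2 at 1 week after FT. Leaving out 1 sample gave 0 to 1 mitotic calls at 1 week after HS, at 1 week after FT and at 2 weeks after FT, and 0 to 2 at 2 weeks after HS. It gave 0 to 1 transport calls at 72 h after HS, 72 h after FT, 2 weeks after HS and 1 week after FT, and 0 to 2 at 2 weeks after FT.

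Scaling to 1 total changed the summed levels in NI to 44.0 (mitotic) and 594.8 CPM (transport) and the transport sum at 1 week after HS to 443.9 CPM. NI columns summed to 777426 to 830481 CPM and injured ones to 878070 to 1202190 CPM, and this scaling moved the share of higher among all DE genes from 67.8% to 16.2% at 72 h after HS and from 66.6% to 18.5% after FT. Counting each member that is not mitotic in place of the transport list gave 650.3 CPM in NI, 546.5, 575.6 and 562.2 CPM after HS and 610.8, 577.3 and 565.5 CPM after FT, at 72 h, 1 week and 2 weeks, since more genes are summed. The cause of the other shifts was not tested.

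Over 57 pairs of same-numbered samples, deviations from the group means correlated at -0.39 to 0.38 (median -0.002), with 20 pairs over 0.1. The numbers thus did not pair the samples across all 7 groups. Among the HS groups and FT at 72 h, however, all such correlations were positive (0.005 to 0.322), and their source was not tested. Both pairs of HS at 1 week were over 0.1 with HS at 72 h (0.151 and 0.251), HS at 2 weeks (0.102 and 0.182) and FT at 72 h (0.157 and 0.244). All 3 pairs were over 0.1 between HS and FT at 72 h (0.143, 0.267 and 0.179) and between HS at 2 weeks and FT at 72 h (0.152, 0.322 and 0.12). With HS and FT at 72 h fitted alone with the replicate block, which was chosen after seeing the data, 0 kinesins and 0 of all genes were DE by limma (6 and 782 at an unadjusted p under 0.05). A fit with the replicate block gave 12 and 11 mitotic kinesins at 72 h after HS and FT and changed no count of kinesins. Levels under about 1 CPM rest on few reads, and intervals from reads cover counting error only.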
